A study of Homo sapiens with 7 samples.

Results

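The V0 sector is the membrane-embedded portion of the vacuolar H+-ATPase (V-ATPase), and its genes were examined in human HCT116 colon carcinoma cells exposed to bafilomycin A1, an inhibitor that binds this sector. The 9 genes were ATP6V0A1, ATP6V0A4 and TCIRG1 for subunit a, ATP6V0C and ATP6V0B for the proteolipid ring, ATP6V0D1 and ATP6V0D2 for subunit d, and ATP6V0E1 and ATP6V0E2 for subunit e. They were taken by name from the 36337 gene names on the array, and 10 of its 50599 probes carry these names, 1 spot per probe and 2 probes for ATP6V0D1. ATP6V0A2 was not analysed here. The study set expression profiles of HCT116 under various stresses, several of them taken from public data, beside those of aneuploid cells. All samples are diploid HCT116 cells carrying an H2B-GFP fusion, a fluorescent histone, and were grown in DMEM. The labels give 10% serum and the methods of the study 5%. The treated group held 4 biological replicate cultures given 10 nM bafilomycin A1 for 30 h, with 100 ng of total RNA labelled per culture and 1 single-colour (Cy3) Agilent array each. The 3 untreated samples of the same line were not analysed here. All values below therefore describe the treated cells and the spread between their cultures, no change caused by the drug was measured, and no test between groups was possible. All 4 arrays lay on 1 slide, so a slide effect could not be examined.

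The V-ATPase couples ATP hydrolysis in its cytosolic V1 sector to rotation of a ring of proteolipid subunits in V0, and the ring carries protons past subunit a into the lumen of lysosomes, endosomes and Golgi vesicles. Subunit d links the ring to the stalk of V1, and subunit e is a small hydrophobic protein at the periphery of V0. Bafilomycin A1 binds to the proteolipid ring and blocks its rotation, so that lysosomes lose their acid lumen. Subunits a, d and e have paralogs with different tissue distributions, whereas ATP6V0C and ATP6V0B both have a place in the ring.

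Because each subunit was read through a single 60-base probe in most cases, the sequences define what was measured. The first 30 bases are shown for 6 probes, and all 60 bases for TCIRG1 and ATP6V0E1, where the probe covers the coding end or spans an exon junction. All run 5′ to 3′ as printed on the array, and capitals in the TCIRG1 probe mark its TAG stop codon, to which the reading frame is open.
ATP6V0A1: gttttcgtgatgatctttgctctgtttcca
TCIRG1: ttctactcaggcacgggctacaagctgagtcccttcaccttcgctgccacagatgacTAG
ATP6V0C: tctataaccttagctagagtgtcgccttgt
ATP6V0B: tcacttttatttattgctggttttcctggg
ATP6V0D1: gtatctaagaagcatgtcactttcatgttc
ATP6V0D1, clone probe: acacaggttgctcctggcatggggatgagt
ATP6V0E1: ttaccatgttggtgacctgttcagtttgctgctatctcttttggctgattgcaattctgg
ATP6V0E2: tgaagcagagaaacattcacacacaaaaag
The 7 pairs of paralog probes shared at most 5 to 10 bases in a row, the same range as the 45 pairs of all 10 probes. Probes were compared only with each other. Binding of a probe to the transcript of a paralog was not tested. Among the probes with RefSeq accessions, only that of ATP6V0C also names another gene, the transcribed pseudogene ATP6V0CP3. RefSeq lists 4 pseudogenes named for ATP6V0C and 4 named for ATP6V0E1, so the values of these 2 genes are uncertain as to transcripts of such copies. The ATP6V0E1 probe covers 25475 bases of the genome and thus crosses a splice junction.

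Transcripts of 8 of the 9 V0 genes were detected in the treated cells. A probe was called detected when each of the 4 arrays had it flagged by the scanning software as well above background. This was so for 8 of the 10 V0 probes against 48.7% of all probes, and for 8 of 9 V0 genes against 52.5% of all gene names. The 6 probes for ATP6V0A1, TCIRG1, ATP6V0C, ATP6V0B, ATP6V0D1 and ATP6V0E1 had signals of 2298 to 82267 intensity units. The probes for ATP6V0A4 and ATP6V0E2 were detected at signals of 65.3 to 401. The probe for ATP6V0D2 was well above background on 0 of 4 arrays. Levels are given as the log2 background-subtracted signal minus the median of the array, with the SD over the 4 cultures. Levels of different probes are not comparable, because probes bind and label with unequal efficiency, so paralogs are set side by side by detection and by their spread only.

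**Figure D1:**
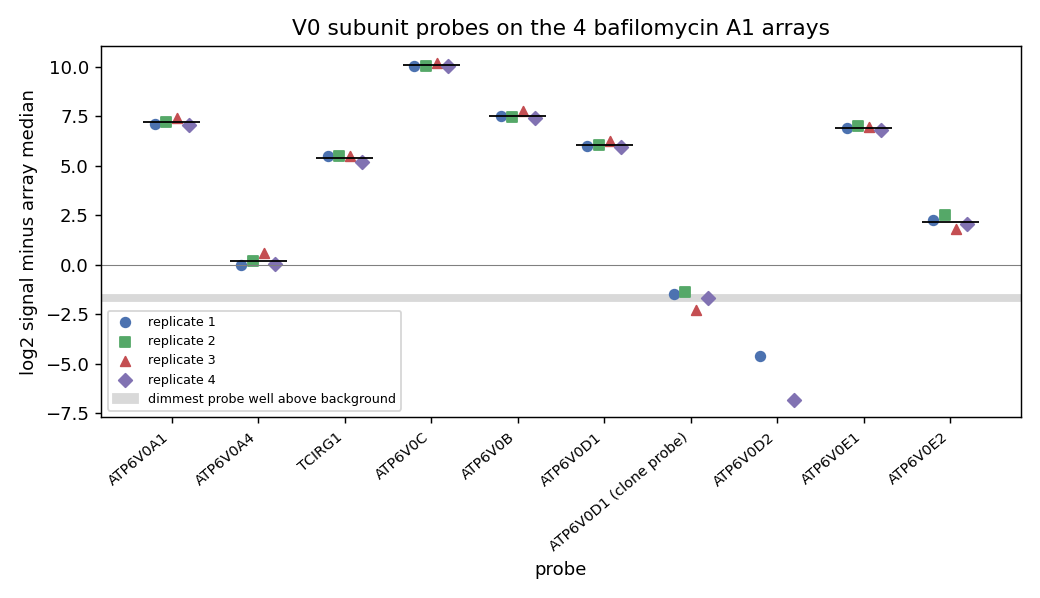
Level of each V0 probe (log2 background-subtracted signal minus the median of the array) on the 4 bafilomycin A1 arrays, with points for replicates, a horizontal bar for the mean of each detected probe, and a grey band for the dimmest probes well above background on each array (-1.84 to -1.51). The 8 detected probes lie above the band on every array, the clone probe of ATP6V0D1 lies around it, and ATP6V0D2 lies below it on the 2 arrays where it had a usable positive signal. Heights of different probes are not comparable.

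Of the 3 subunit a genes, ATP6V0A1 and TCIRG1 were detected far above background and ATP6V0A4 only a few-fold above it. ATP6V0A1 encodes the a1 isoform, present in most tissues and prominent in neurons. Its probe (GRCh37 chr17:40674476-40674535, plus strand) read 10648, 10437, 11894 and 8418 intensity units on replicates 1 to 4. The levels were 7.11, 7.22, 7.40 and 7.05, with a mean of 7.20 ± 0.15 (SD, n = 4). Replicate 3 was highest and replicate 4 lowest, and the whole span was 1.28-fold. The signal was 377 to 572 times that of the dimmest probe called well above background on the same array.

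TCIRG1 encodes the a3 isoform, which serves acid secretion by osteoclasts and is mutated in osteopetrosis. Its probe (chr11:67818227-67818286, plus strand) read 3444, 3144, 3146 and 2298 units. The levels were 5.48, 5.49, 5.49 and 5.18, with a mean of 5.41 ± 0.15 (SD, n = 4). Replicates 1 to 3 lay close together and replicate 4 was lower, with a span of 1.24-fold. The gap was 0.984 of the range by Dixon's ratio, above the critical value for 4 values, but 0.527 with the 75th percentile subtracted and 0.349 after quantile normalization, below it.

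ATP6V0A4 encodes the a4 isoform of acid-secreting kidney cells, mutated in distal renal tubular acidosis. Its probe read 75.8, 81.3, 104 and 65.3 units, or 3.52, 3.79, 5.01 and 2.92 times the dimmest probe well above background. The levels were -0.02, 0.21, 0.57 and 0.04, with a mean of 0.20 ± 0.27 (SD, n = 4), and replicate 3 was the highest. The span of 1.51-fold fell to 1.18-fold without replicate 3. The software's own error for this spot was 10.8 to 12.1% of the signal, or 0.16 to 0.17 on the log2 scale. Bright V0 probes had an error of 10.0% on every array, so the error was not read as a measured one. The SD of 0.27 between arrays was 0.21 with the 75th percentile subtracted, 0.16 after quantile normalization and 0.12 without replicate 3. It thus depended on the scaling and on 1 array. In RNA from a whole culture, few cells with much transcript and many cells with little cannot be told apart.

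Both proteolipid genes were detected, with a smaller spread between cultures for ATP6V0C. ATP6V0C encodes subunit c, the main component of the ring and the binding site of bafilomycin A1. Its probe (chr16:2570094-2570153, plus strand) read 80757, 74530, 82267 and 66603 units, and no V0 spot was saturated (0 of 10 probes on any array). The levels were 10.03, 10.05, 10.19 and 10.04, with a mean of 10.08 ± 0.08 (SD, n = 4). The span of 1.12-fold was the smallest among the detected V0 probes, and replicate 3 stood above the rest with a Dixon's ratio of 0.87, which was 0.167 with the 75th percentile subtracted and 0.717 after quantile normalization, below the critical value. ATP6V0B encodes subunit c″ of the same ring. Its probe (chr1:44443706-44443765, plus strand) read 13805, 12131, 15299 and 10790 units. The levels were 7.49, 7.44, 7.77 and 7.41, with a mean of 7.52 ± 0.17 (SD, n = 4), and replicate 3 was again the highest, with a span of 1.28-fold.

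The subunit d genes differed in detection. ATP6V0D1, the widely expressed form, was read by a probe on its RefSeq transcript (chr16:67472093-67472152, minus strand) at 4820, 4646, 5317 and 3840 units. The levels were 5.97, 6.05, 6.24 and 5.92, with a mean of 6.04 ± 0.14 (SD, n = 4) and a span of 1.25-fold. A second probe under the same gene name was designed on a cDNA clone and lies 18906 bases away (chr16:67491059-67491118, minus strand). It read 28, 27.6, 14.7 and 20.0 units and was well above background only on replicates 1 and 2. The 2 probes of ATP6V0D1 thus disagreed in detection, and the clone probe, which carries no RefSeq accession, was not used for the level of the gene.

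ATP6V0D2 encodes the d2 isoform, known from kidney and from osteoclasts, where it takes part in cell fusion. Its probe (chr8:87165305-87165364, plus strand) read 3.22, -0.196, 3.24 and 0.554 units after background subtraction. On replicates 1, 3 and 4 these are 0.15, 0.156 and 0.0248 of the dimmest signal called well above background. The spot on replicate 3 also carried an outlier flag for its local background, so no level was taken there. The software's p-values for a difference from background were 0.0526, 0.905, 0.044 and 0.747, and it called the signal positive and significant on 0 of 4 arrays. The transcript was not detectable with this probe, which does not show that it is absent.

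**Figure D2:**
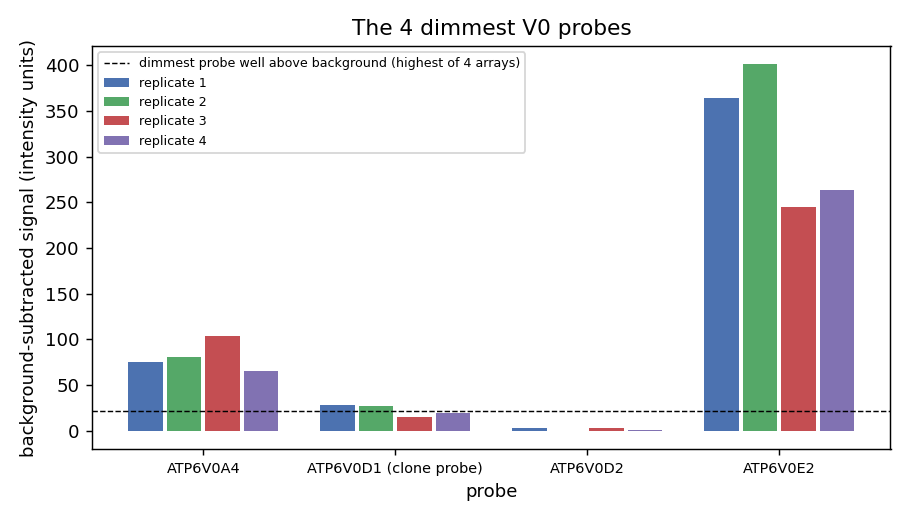
Background-subtracted signal (linear intensity units, bars from 0) of the 4 V0 probes with the lowest signals on each of the 4 bafilomycin A1 arrays, with a dashed line at 22.3, the highest of the 4 arrays' dimmest signals well above background. ATP6V0A4 (65.3 to 104) and ATP6V0E2 (245 to 401) stand above the line on every array, the clone probe of ATP6V0D1 straddles it (14.7 to 28), and ATP6V0D2 stays near 0.

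Both subunit e genes were detected, with a wider spread for ATP6V0E2. ATP6V0E1 is the widely expressed form. Its probe (chr5:172421786-172447260, plus strand, both exon parts included) read 9077, 8941, 8589 and 6965 units, and the levels were 6.88, 7.0, 6.93 and 6.78 (mean 6.90 ± 0.09, SD, n = 4). The 4 cultures spanned 1.16-fold. ATP6V0E2 is the paralog known for high expression in brain. Its probe (chr7:149576953-149577012, plus strand) read 364, 401, 245 and 264 units, 11.8 to 18.7 times the dimmest signal well above background. The levels were 2.24, 2.52, 1.80 and 2.06, with a mean of 2.15 ± 0.30 (SD, n = 4). Replicate 2 was the highest and replicate 3, where most other V0 probes were highest, was the lowest. The span of 1.64-fold fell to 1.37-fold without replicate 3 and to 1.36-fold without replicate 2.

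Most V0 probes varied little between the cultures. The study applied a cutoff of 1.4-fold to ratios of an aneuploid to its diploid line, calculated from medians. A span here runs from the lowest to the highest single array of the same treatment. The share of probes above 1.4-fold in span is therefore not the share that would pass the cutoff of the study. Of the 8 detected V0 probes, 2 (ATP6V0A4 and ATP6V0E2) spanned more than 1.4-fold between replicate cultures, against 43.5% of all 24633 detected probes. The share depended on brightness and was 30.7% in the upper tercile of detected probes by level, 43.3% in the middle tercile and 56.6% in the lower tercile. The 6 bright V0 probes belong to the upper tercile, with SDs of 0.08 to 0.17 and spans of 1.12-fold to 1.28-fold, whereas ATP6V0E2 falls in the middle tercile and ATP6V0A4 in the lower tercile. The median SD was 0.15 over the V0 probes, 0.17 over the upper tercile and 0.20 over all detected probes. A single array lay apart by Dixon's ratio in 2 of 8 V0 probes (TCIRG1 and ATP6V0C), against 7.3% of all detected probes. Neither lay apart with the 75th percentile subtracted or after quantile normalization. For the 6 bright V0 probes the software's own error was 10.0% on every array, or 0.14 on the log2 scale, at signals of 2298 to 82267. Because it did not vary with the spot, it was not read as a measured error to set against these SDs.

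The 8 detected probes shared part of their variation between arrays, and this share depended on how the arrays were scaled. As deviations from each probe's own mean, the V0 probes averaged -0.04, 0.06, 0.11 and -0.13 on replicates 1 to 4 (SD 0.11). All 8 were below their own mean on replicate 4, and 7 were above it on replicate 3, where ATP6V0E2 was the exception. The same deviations over all detected probes were -0.01, 0.04, 0.07 and -0.09, with 19.5% of probes above their own mean on replicate 4 and 63.3% on replicate 3. Over the upper tercile they were -0.07, 0.01, 0.15 and -0.08, with 13.6% of probes above their own mean on replicate 4 and 80.0% on replicate 3. With the median subtracted, the V0 probes thus followed the order of the arrays as a whole. With the processed signal minus the 75th percentile of the array, the V0 means were -0.02, 0.00, 0.04 and -0.03, and 3 of 8 probes were above their own mean on replicate 4. After normexp and quantile normalization they were 0.03, 0.04, -0.04 and -0.03, so that replicate 3 turned from the highest to the lowest. Over all detected probes the means lay between -0.02 and 0.01 with the 75th percentile and between -0.01 and 0.01 after quantile normalization. ATP6V0E2 stayed highest on replicate 2 and lowest on replicate 3 under these 3 scalings, and ATP6V0A4 stayed highest on replicate 3.

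**Figure D3:**
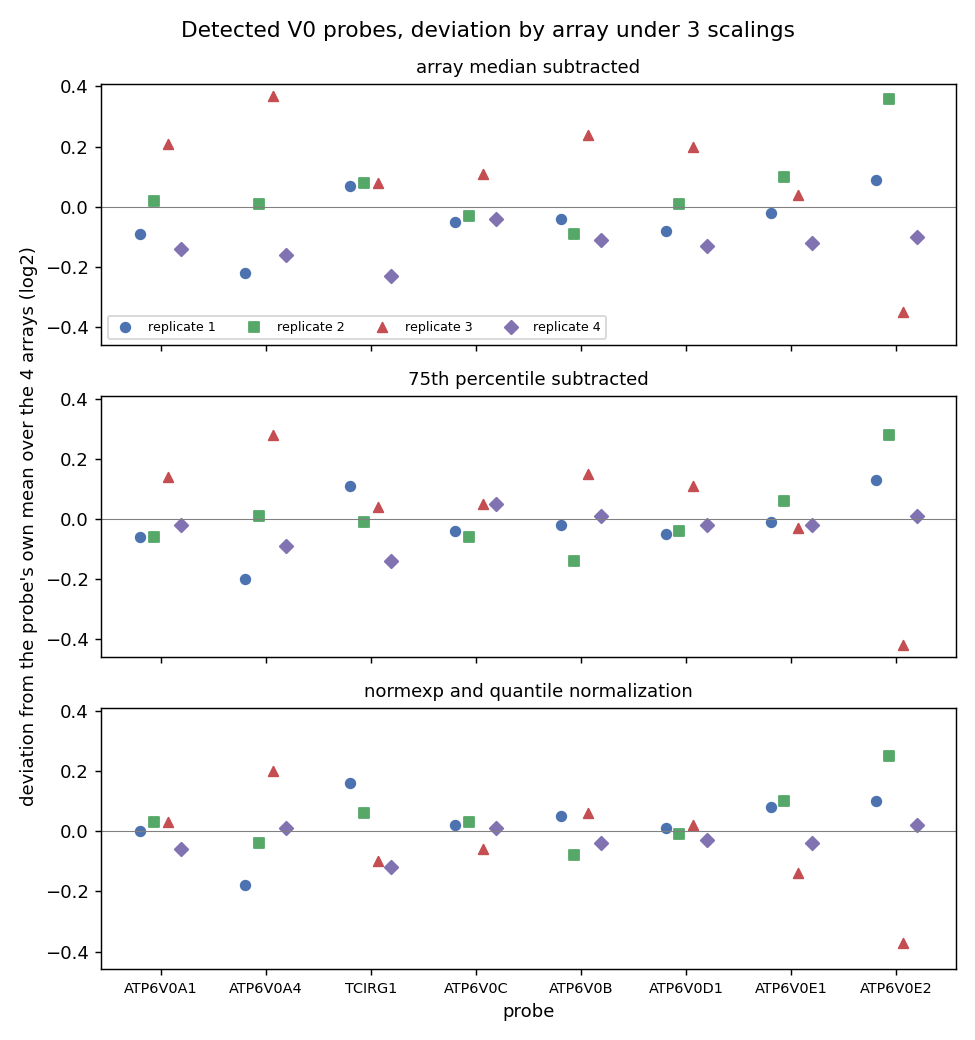
Deviation of each detected V0 probe from its own mean over the 4 arrays (log2), with points for replicates and 1 panel for each of 3 scalings. With the median subtracted all 8 probes lie below 0 on replicate 4, with the 75th percentile or after quantile normalization 3 of 8 lie above 0 there, and ATP6V0E2 is lowest on replicate 3 in every panel.

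Ratios of paralogs within an array do not depend on the median that is subtracted, and only their change between arrays is read here. They are not free of shifts that differ with brightness. On replicate 3 the mean deviation was 0.15 over the upper tercile of detected probes and -0.02 over the lower tercile. The ratios are given for the background-subtracted signal only, and ratios of a bright to a dim probe carry this limit. The ratio of ATP6V0C to ATP6V0B changed least, by -0.01, 0.06, -0.13 and 0.07 (log2) from its mean on replicates 1 to 4, a span of 1.15-fold. For subunit a, the ratio of ATP6V0A1 to TCIRG1 spanned 1.22-fold and that of ATP6V0A1 to ATP6V0A4 1.23-fold. The ratio of TCIRG1 to ATP6V0A4 changed by 0.30, 0.06, -0.29 and -0.07, a span of 1.5-fold that was 1.28-fold without replicate 1 and 1.29-fold without replicate 3. The ratio of ATP6V0E1 to ATP6V0E2 changed by -0.10, -0.26, 0.39 and -0.02, a span of 1.57-fold that fell to 1.18-fold without replicate 3. Every ratio that spanned over 1.4-fold held ATP6V0A4 or ATP6V0E2, the detected V0 probes with the lowest signals.

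**Figure D4:**
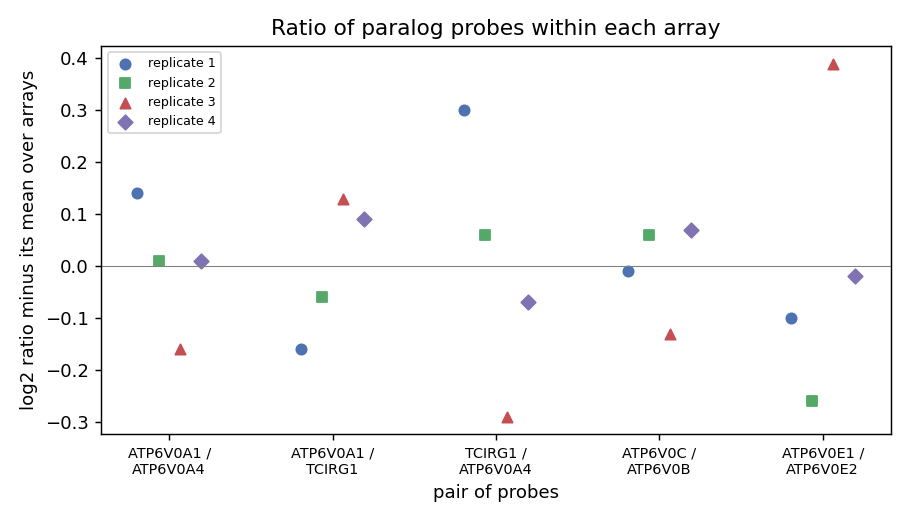
Log2 ratio of paralog probes within each array, minus its mean over the 4 bafilomycin A1 arrays, with points for replicates. The ratio of ATP6V0C to ATP6V0B stays within -0.13 to 0.07, whereas that of ATP6V0E1 to ATP6V0E2 runs from -0.26 on replicate 2 to 0.39 on replicate 3.

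Most genes that complete the pump were also detected. Of 23 further V-ATPase genes, 19 (82.6%) were detected on all arrays, against 52.5% of all gene names, with 10 of 13 V1 subunits and 9 of 10 accessory and assembly factors. ATP6V1B1, the V1 paralog of kidney intercalated cells, was well above background on 0 arrays. ATP6V1E1 and DMXL2 were detected on 3 arrays and ATP6V1G3 on 1 array, and these 3 are named after their values were seen. With outlying spots kept, 20 of the 23 genes were detected on all arrays. A missing call can therefore come from an outlier flag and not from low signal. The catalytic subunit ATP6V1A had a level of 6.64 ± 0.29 (SD, n = 4). ATP6AP1, which assists assembly of the proteolipid ring, had a level of 7.35 ± 0.19 (SD, n = 4), and ATP6AP2, the prorenin receptor, one of 5.06 ± 0.14 (SD, n = 4). RNASEK, a small V0-associated protein, stood at 9.51 ± 0.27 (SD, n = 4). The assembly factors of the endoplasmic reticulum, VMA21, TMEM199 and CCDC115, stood at means of 5.77, 3.91 and 3.80. Their SDs were 0.22, 0.15 and 0.39, as medians over 2 probes each. A probe of CCDC115 had an SD of 0.59, the largest among the 24 detected probes of the further V-ATPase genes. Over the 24 detected probes of these further genes, the mean deviations of -0.07, 0.03, 0.14 and -0.11 on replicates 1 to 4 put replicate 3 highest and replicate 4 lowest with the median subtracted, as did the mean over all detected probes. More than 1.4-fold was spanned by 8 of these probes (33.3%), against 43.5% of all detected probes.

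The epithelial identity expected of a colon carcinoma line was checked against marker genes, since several V0 paralogs are known from other cell types. Of 8 epithelial markers 7 were detected, with mean levels of 11.81 for KRT19, 10.60 for KRT18, 8.84 for EPCAM, 5.81 for CDH1 and 3.84 for CDX2. KRT20 had a level of -0.13 ± 0.63 (SD, n = 4) and VIL1, a brush border gene, was well above background on 0 arrays. Of 25 markers of other cell types found on the array, 15 (60%) were detected and 7 on 0 arrays, at levels of -1.24 to 4.09. For the kidney cells known for ATP6V0A4 and ATP6V0D2, 1 of 4 markers (SLC4A1, at a level of 0.33) was detected, and SLC26A4 and SLC26A7 were well above background on 0 arrays. For osteoclasts, known for TCIRG1 and ATP6V0D2, 5 of 6 markers were detected, with mean levels of 3.38 for OSCAR, 3.22 for CTSK, 2.64 for NFATC1, 1.64 for MMP9 and -1.24 for ACP5, while CALCR was well above background on 0 arrays. For neurons, known for ATP6V0A1 and ATP6V0E2, 3 of 4 markers were detected, while SYP was well above background on 0 arrays. The levels were 4.09 ± 0.65 (SD, n = 4) for RBFOX3, 2.73 for SYT1 and 0.92 for SNAP25. Detected markers of fibroblasts, leukocytes and endothelium were COL1A1 at 2.91, CD68 at 1.17, CDH5 at 0.83, VWF at 0.78, PTPRC at 0.57 and CD3E at -0.34. Probes of a gene disagreed for RBFOX3 (1 of 2 detected), PTPRC (1 of 5), VWF (2 of 3) and SLC4A1 (2 of 4), and the level is over the detected ones. The 60% over all 25 markers stands beside 52.5% of all gene names. All samples are cultures of 1 cell line, so a detected marker does not show that cells of another type were present. The origin of these marker signals was not tested.

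Promoters were examined because many lysosomal genes carry an E-box with the core CACGTG, which is bound by TFEB and related factors. RefSeq promoters (GRCh38.p14, 250 bases before to 50 after the start) were matched for 7 of the 9 genes, and ATP6V0D2 and ATP6V0E1 were not matched. The core reads the same on both strands and was found in 3 of 7 promoters (42.9%), against 2548 of 35116 promoters (7.26%). The longer form, with GT before and AC after the core, was found in 0 of 7 against 0.353% of all promoters. The 30-base windows around each core are shown on the strand of the gene, with the core in capitals.
ATP6V0B, first site, chr1:43974891-43974920 (plus): ccggcgtggggtCACGTGgtaccggcgcat
ATP6V0B, second site, chr1:43974909-43974938 (plus): gtaccggcgcatCACGTGggcgagttaggt
ATP6V0D1, chr16:67481199-67481228 (minus): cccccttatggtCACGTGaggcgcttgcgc
ATP6V0E2, chr7:149872884-149872913 (plus): tcccttctgcatCACGTGgggactgcgcct
The cores begin 57 and 39 bases before the start of ATP6V0B, 59 bases before that of ATP6V0D1 and 72 bases before that of ATP6V0E2. The windows of ATP6V0A1, ATP6V0A4, TCIRG1 and ATP6V0C held no core. A match is a description of the letters, and binding was not measured on these arrays.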

How the data were processed

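Gene expression was measured on Agilent SurePrint G3 single-colour arrays in 4 bafilomycin A1 cultures, and the 3 untreated samples were not analysed here. For every array the authors deposited the output of Agilent Feature Extraction 10.7.3.1 (version from the submitters' processing notes), which gives background-subtracted intensity values on a linear scale that were not normalized between arrays. Each spot also has a deposited p-value against background and yes-or-no flags for detection, saturation and outliers. Probe coordinates are GRCh37 per the file headers.

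Following the methods of the study, the background-subtracted signal was log2 transformed and the median of the array subtracted, here over non-control probes with a positive signal. Spots flagged as outliers (514, 725, 2249 and 527 on replicates 1 to 4) were left out, and a signal of 0 or less gave no level. Detection of a probe required that over 50% of its spots on the array be well above background. A probe whose spots were all left out as outliers counted as not detected on that array. Median log2 signals per array were 6.27, 6.13, 6.13 and 5.99, and 57.4, 55.4, 53.4 and 52.3% of probes were detected; the number of arrays limits the precision. With 1 group, no test between groups was run. Genes named are all V0 members, members of the other V-ATPase list detected on no array, and markers that go against epithelial identity. Further list members were picked for naming after their values were seen. Protein sequences were not analysed here, and some probe sequences are not reported here. Members and lists were chosen with earlier results of these data known. LYZ and DCSTAMP were not found by symbol. SDs and Dixon's ratio were tested on simulated data.

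Alternatives were the processed signal minus the 75th percentile, normexp (offset 50) with quantile normalization in limma 3.58.1, the median over all spots, outlying spots kept, no filter on dim probes, positive and significant signal as the detection rule, the median per gene, and leaving out each array. R 4.3.3 and Python 3.11.15 were used, the latter with matplotlib 3.10.9, pandas 2.3.3 and numpy 2.4.6.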

Additional observations from a re-analysis of the deposited data

Results flagged for a closer look

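A single array lay far from the others, by a Dixon's ratio (the gap over the whole range) above its critical value for 4 values, in 2 of 16 values examined, and chance alone marks about 5% of values. The TCIRG1 probe had a ratio of 0.984, with levels of 5.48, 5.49, 5.49 and 5.18 and replicate 4 the low one. The ratio was 0.863 with the median over all spots and 0.981 with outlying spots kept, but 0.527 with the 75th percentile and 0.349 after quantile normalization. The ATP6V0C probe had a ratio of 0.87, with levels of 10.03, 10.05, 10.19 and 10.04 and replicate 3 the high one. It was 0.866 with outlying spots kept, 0.738 with the median over all spots, 0.717 after quantile normalization and 0.167 with the 75th percentile. With the 75th percentile the ATP6V0D1 probe lay apart instead, with a ratio of 0.851, so which probe stood apart changed with the scaling.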

How the results depend on the processing

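The number of V0 genes detected was 8 under every alternative run, and that of V0 probes 8, or 9 with positive and significant signal as the rule. The other V-ATPase genes detected were 19, or 20 with outlying spots kept or with that rule, and 19 to 20 with 1 array left out. The median SD of the V0 probes (0.15) was 0.10 with the processed signal minus the 75th percentile, 0.09 after normexp and quantile normalization, and 0.10 to 0.18 with 1 array left out. V0 probes spanning over 1.4-fold (2) were 1 after quantile normalization, where 16.9% of all detected probes did so, and 0 to 2 with 1 array left out, with 0 without replicate 3 and 1 without replicate 2. The count was 3 with the dim probe of ATP6V0D1 included. The SD of the mean deviation (0.11) was 0.03 with the 75th percentile, 0.04 after quantile normalization, and 0.08 to 0.13 with 1 array left out. All 8 probe levels stayed within 1 SD with any array left out or outlying spots kept, but neither setting could show otherwise. Leaving out 1 of 4 values cannot move their mean by 1 SD of those values, and no spot of these 8 probes carried an outlier flag. All 8 levels moved with the 75th percentile or quantile normalization and 6 of 8 with the median over all spots, each of which sets another zero. Signal over background limits ATP6V0A4 and the clone probe of ATP6V0D1. No paired analysis was possible because the untreated samples that share the replicate numbers were not analysed here.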
